A study of Mus musculus with 6 samples.

Results

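The 9 genes described here are little-studied genes whose RPKM values in the 3 Dbx1 samples did not overlap those in the 3 non-Dbx1 samples, out of 49568 gene names with a value in each sample. They are 3 genes for long non-coding RNAs, D930028M14Rik, 2810468N07Rik and 1700064M15Rik, and 6 protein-coding genes, Cdr1, Zfp105, Zkscan17, Adssl1, Cmbl and Mtfp1. They were chosen by the RPKM values of this same contrast, so their own differences are given as a description, without a test. Of the 17614 genes with a non-zero RPKM in 3 or more samples, 1866 had groups that did not overlap (10.6%), 943 of them higher in the Dbx1 samples (5.35%) and 923 higher in the non-Dbx1 samples (5.24%), and all 9 genes are among them by choice. Of the 9, 5 were higher in the non-Dbx1 samples and 4 in the Dbx1 samples.

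The samples came from the preBötzinger complex (preBötC), a site in the ventral medulla that generates the rhythm of inspiration, in mice of both sexes at postnatal day 2. All animals carried Dbx1CreERT2 and Rosa26tdTomato, and tamoxifen given to the pregnant dams made cells descended from Dbx1-expressing progenitors express tdTomato, so both groups share the alleles and the drug. Dbx1 samples held fluorescent neurons and non-Dbx1 samples held neuronal somata that did not fluoresce, 15 neurons in each sample, drawn one by one into a pipette and each sample from a different animal. The label depends on a single window of tamoxifen-induced recombination, and the unlabelled somata are a mixture of whatever other neurons the slice held. In pools of this kind, fewer cells that express a gene and less RNA per cell cannot be told apart.

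Long non-coding RNAs are transcripts without a known protein product, and many of them start beside or inside a protein-coding gene on the opposite strand. Zinc finger proteins with SCAN or KRAB domains bind DNA, and the KRAB domain recruits Trim28 and a chromatin-silencing complex. Cdr1 was first known as a neuronal antigen made of short repeats, and its locus also gives rise to a circular RNA from the opposite strand that carries many binding sites for the microRNA miR-7. Adssl1, Cmbl and Mtfp1 encode proteins of metabolism: a purine enzyme, a cytosolic hydrolase and a protein of the inner mitochondrial membrane.

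The repeat of Cdr1 is shown because the microRNA and the gene share letters, which places the pairing sites on the other strand. The mature miR-7a of the mouse, with its seed (bases 2 to 8) in capitals, and the first 216 bases of the Cdr1 exon, chrX:61185343-61185558 of GRCm38 on the minus strand, with the same letters written as DNA in capitals, were as follows. The microRNA is from RefSeq (GRCm38.p6) and the exon from the GENCODE vM21 transcripts.
mmu-miR-7a-5p: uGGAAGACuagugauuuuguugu
Cdr1 exon start: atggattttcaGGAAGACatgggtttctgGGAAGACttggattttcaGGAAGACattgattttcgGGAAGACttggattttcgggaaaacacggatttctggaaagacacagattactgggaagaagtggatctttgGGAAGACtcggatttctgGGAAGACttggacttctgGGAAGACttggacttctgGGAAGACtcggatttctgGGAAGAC
The stretch holds 9 copies of GGAAGAC, and the whole exon of 1554 bases holds 79. Of the 78 steps between neighbouring copies, 72 were exactly 18 bases long, 4 were 36, 1 was 72 and 1 was 19. Since Cdr1 carries the letters of the seed itself, the complement that miR-7 can pair with lies on the opposite strand, and the Cdr1 strand held 0 copies of that complement, GTCTTCC. Among the 52759 annotated transcripts of at least that length, 19.7% held GGAAGAC at least once in their first 1554 bases, and the most copies in a transcript of another gene was 11, for Naf1. A transcript of C230004F18Rik, the long non-coding RNA annotated across Cdr1 on the opposite strand, held 55 copies of the complement in the same window.

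**Figure D1:**
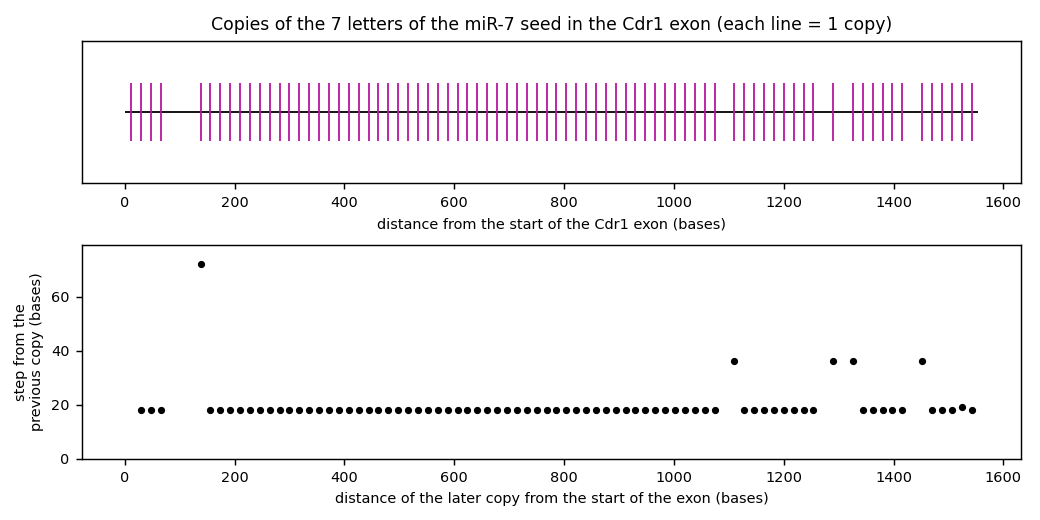
Positions of the 79 copies of the miR-7 seed letters along the Cdr1 exon, in bases from its start (upper panel, 1 line per copy), and the step from each copy to the next, in bases (lower panel). The copies run from base 12 to base 1543 and 72 of the 78 steps are 18 bases.

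For 8 of the 9 genes RefSeq gives a promoter, here the 250 bases before and 50 bases after the start on GRCm38.p6, with no entry matched for 2810468N07Rik. The RefSeq starts of D930028M14Rik, Cmbl and Zkscan17 lie inside the genes as GENCODE annotates them, so these windows are not at the outermost annotated start. Shown are the promoters with the fewest and the most CpG dinucleotides among the 8 (D930028M14Rik and 1700064M15Rik), those of Cmbl, Adssl1 and Zfp105, whose RNA was at or near 0 in 1 group, and that of Sox8, which lies inside 2810468N07Rik. Capitals mark 3 promoter motifs on either strand: the TATA box as TATAAA, the CCAAT box as CCAAT, and the GC box as GGGCGG, of which adjoining copies can share letters.
D930028M14Rik, chr7:25154819-25155118, plus strand: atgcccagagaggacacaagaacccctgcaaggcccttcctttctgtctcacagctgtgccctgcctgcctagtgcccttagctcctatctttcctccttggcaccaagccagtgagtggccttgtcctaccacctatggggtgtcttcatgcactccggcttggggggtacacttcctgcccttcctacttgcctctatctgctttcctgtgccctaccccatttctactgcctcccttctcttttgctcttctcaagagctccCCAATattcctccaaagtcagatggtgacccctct
1700064M15Rik, chr12:99627925-99628224, minus strand: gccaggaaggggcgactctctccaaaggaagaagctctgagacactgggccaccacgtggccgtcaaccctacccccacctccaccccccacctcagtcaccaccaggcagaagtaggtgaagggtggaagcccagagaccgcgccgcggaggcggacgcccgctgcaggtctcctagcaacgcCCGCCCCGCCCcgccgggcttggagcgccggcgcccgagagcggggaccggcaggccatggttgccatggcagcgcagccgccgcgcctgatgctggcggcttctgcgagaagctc
Cmbl, chr15:31568583-31568882, plus strand: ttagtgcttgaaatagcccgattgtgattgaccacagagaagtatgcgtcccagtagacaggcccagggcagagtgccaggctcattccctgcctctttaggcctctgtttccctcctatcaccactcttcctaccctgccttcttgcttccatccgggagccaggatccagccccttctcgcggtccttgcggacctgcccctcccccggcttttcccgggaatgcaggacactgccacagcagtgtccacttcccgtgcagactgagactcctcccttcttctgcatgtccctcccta
Adssl1, chr12:112619797-112620096, plus strand: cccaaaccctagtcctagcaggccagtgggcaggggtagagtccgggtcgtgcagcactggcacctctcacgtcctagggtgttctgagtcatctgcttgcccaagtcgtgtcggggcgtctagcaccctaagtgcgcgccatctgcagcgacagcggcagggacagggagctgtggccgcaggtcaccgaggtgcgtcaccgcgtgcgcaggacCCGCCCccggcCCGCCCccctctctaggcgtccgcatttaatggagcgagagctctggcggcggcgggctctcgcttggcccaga
Zfp105, chr9:122922828-122923127, plus strand: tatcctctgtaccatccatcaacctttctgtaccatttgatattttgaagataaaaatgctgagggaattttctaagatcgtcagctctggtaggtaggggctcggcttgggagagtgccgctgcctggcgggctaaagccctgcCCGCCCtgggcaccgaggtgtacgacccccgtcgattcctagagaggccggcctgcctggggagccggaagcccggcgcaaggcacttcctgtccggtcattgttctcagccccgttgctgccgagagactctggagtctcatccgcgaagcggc
Sox8, chr17:25570637-25570936, minus strand: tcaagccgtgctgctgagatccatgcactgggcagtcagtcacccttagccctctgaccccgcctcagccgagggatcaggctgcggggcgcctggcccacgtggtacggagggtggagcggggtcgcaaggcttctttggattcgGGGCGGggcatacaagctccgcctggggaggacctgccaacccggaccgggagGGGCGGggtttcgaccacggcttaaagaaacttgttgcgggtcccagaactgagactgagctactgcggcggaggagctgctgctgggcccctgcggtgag
The promoter of D930028M14Rik held 1 CpG, and 5.43% of the 32851 promoters held fewer. That of 1700064M15Rik held 27, and 84.5% held fewer, while the median of all promoters was 7. The 4 promoters of genes higher in the non-Dbx1 samples held 1 (D930028M14Rik), 9 (Cmbl), 14 (Zkscan17) and 26 CpG (Adssl1), and the 4 of genes higher in the Dbx1 samples held 3 (Cdr1), 11 (Mtfp1), 19 (Zfp105) and 27 (1700064M15Rik), so the ranges overlapped. None of the 8 held TATAAA, which 13.6% of all promoters did. CCAAT was in those of D930028M14Rik, Zkscan17 and Mtfp1 (37.4% of all promoters), and GGGCGG in those of Adssl1, Zfp105 and 1700064M15Rik (35.7%). Each of the latter motifs occurred on both sides of the contrast, and a match is a run of letters, not a site shown to be used.

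RPKM, the reads on a gene scaled to its exon length and to all reads on genes in the sample, is the unit of every level below. L2FC stands for the mean of log2(RPKM + 1) over the Dbx1 samples less that over the non-Dbx1 samples, with limma's standard error (SE), so values above 0 lie on the Dbx1 side. It understates the change of genes near 0. The reads on genes ranged from 6464675 to 9432958 per sample. Folds are ratios of the groups' pooled RPKM, with 95% exact (Clopper-Pearson) intervals that cover counting error only, and where a group had no read the fold is a lower bound against 3 reads over that group.

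D930028M14Rik (ENSMUSG00000074274) is a gene for a long intergenic non-coding RNA of unknown function, on chromosome 7 from 25152457 to 25156627 of GRCm38 on the plus strand. Its RPKM measured 1.26, 0.222 and 0 in Dbx1 samples 1, 2 and 3, and 47.2, 79.7 and 109.2 in non-Dbx1 samples 1, 2 and 3. The lowest non-Dbx1 sample thus lay far above the highest Dbx1 sample, and the gap between them, 4.41 on the log2(RPKM + 1) scale, was the largest among the 923 non-overlapping genes on the non-Dbx1 side. The means were 0.494 ± 0.673 in Dbx1 and 78.7 ± 31.0 in non-Dbx1 samples (SD, n = 3 each; L2FC = -5.75, SE 0.46). These values rest on 14 reads in Dbx1 and 2414 in non-Dbx1 samples, a fold of 158 (94.1 to 289.9). In the non-Dbx1 samples the mean was above that of 97.4% of the 23015 genes with a read there. At a false discovery rate (FDR) below 0.1, limma called 1 of the 17614 genes (0.00568%), and it was this gene, on the contrast that chose it, so nothing is read from the call. It was not called when non-Dbx1 sample 2 or non-Dbx1 sample 3 was left out, and 916 genes had an unadjusted p below 0.05.

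2810468N07Rik (ENSMUSG00000091475) is an antisense RNA gene on chromosome 17 from 25570358 to 25575043 on the plus strand, of unknown function, whose first bases overlap the start of Sox8. It was listed at 0 in all 3 Dbx1 samples and at 59.7, 52.4 and 10.1 RPKM in non-Dbx1 samples 1, 2 and 3. The groups lay apart, and the non-Dbx1 samples differed among themselves by 5.89-fold between the highest and the lowest, the widest spread among the 9 genes within the group where each was higher. The non-Dbx1 mean was 40.8 ± 26.8 (SD, n = 3; L2FC = -5.05, SE 0.69), from 1255 reads. With no read in the Dbx1 samples and 3 reads taken as the floor, which is 0.0991 RPKM over that group, the RNA was at least 384-fold higher in the non-Dbx1 samples.

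1700064M15Rik (ENSMUSG00000100211), another gene for a long intergenic non-coding RNA of unknown function, lies on chromosome 12 from 99626053 to 99627974 on the minus strand. It showed the reverse arrangement, with 3.51, 6.38 and 6.68 RPKM in Dbx1 samples 1, 2 and 3 and 0 in every non-Dbx1 sample. Its level was the lowest among the 9 genes in the group where each was higher, 5.53 ± 1.75 (SD, n = 3; L2FC = 2.67, SE 0.51), and it rests on 79 reads. Against the floor of 3 reads over the non-Dbx1 samples, 0.190 RPKM, it was at least 28.7-fold higher in the Dbx1 samples. In a single non-Dbx1 sample 3 reads would have been 0.493 to 0.719 RPKM, so lower levels in 1 sample could have been missed.

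Other genes were also listed at 0 throughout 1 group and above 0 throughout the other. Of the 17614 genes tested, 91 were at 0 in the Dbx1 samples and above 0 in every non-Dbx1 sample, and 121 were of the reverse kind. For the middle gene of each kind, the sample with the most reads had 21 and 22 reads. Ranked by their lowest value in the group where they were present, 2810468N07Rik was rank 1 and Cmbl rank 2 of the 91, and 1700064M15Rik was rank 5 of the 121. These 3 of the 9 genes passed the filter on low values only through the group where they were high.

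**Figure D2:**
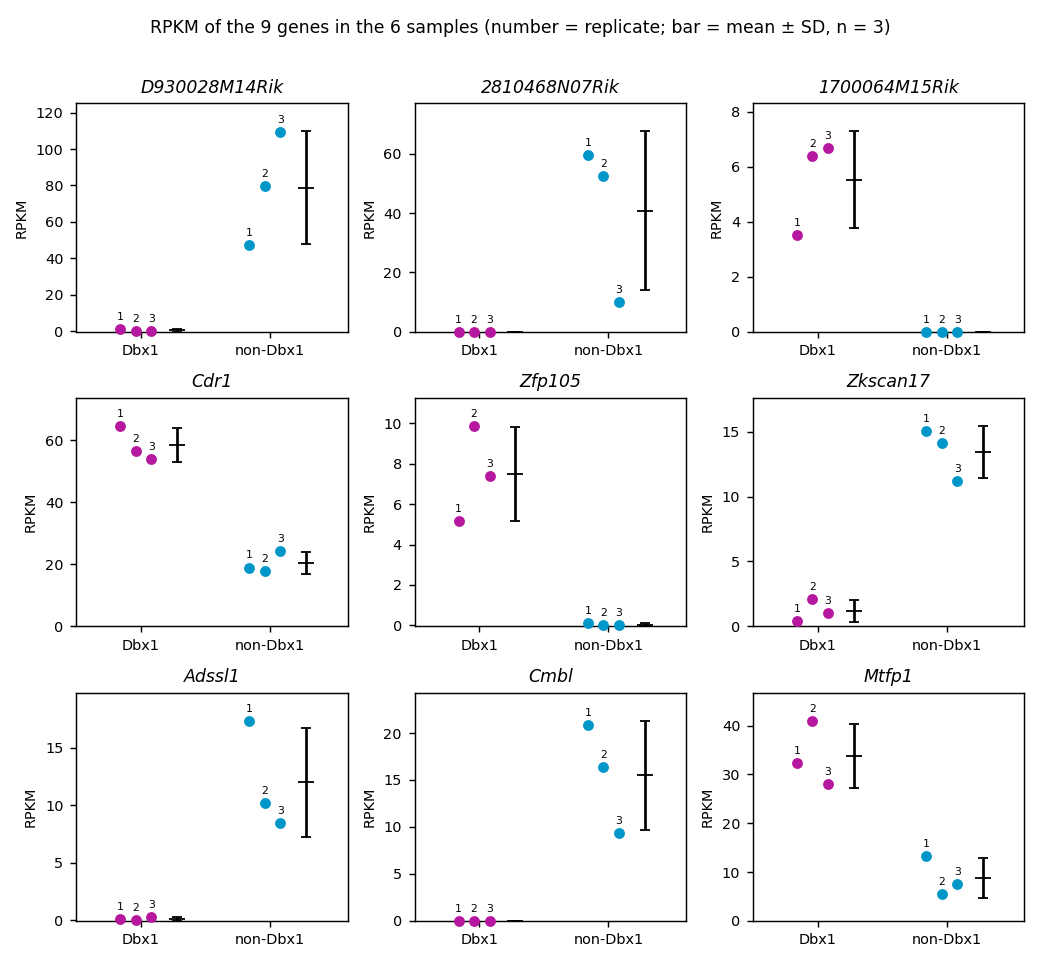
RPKM of each of the 9 genes in the 3 Dbx1 (magenta) and 3 non-Dbx1 (cyan) samples, with the replicate number above each point and the mean ± SD (n = 3) as a black bar. Every panel has its own axis, which starts at 0 or, where the mean less the SD is negative, below 0. In each panel the groups lie apart, by the largest margin for D930028M14Rik (highest Dbx1 sample 1.26, lowest non-Dbx1 sample 47.2).

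Among the genes for DNA-binding proteins, Zfp105 was at or near 0 in the non-Dbx1 samples and Zkscan17 was higher in the non-Dbx1 samples. Zfp105 (ENSMUSG00000057895, chromosome 9, 122923072 to 122931028, plus strand) encodes a C2H2 zinc finger protein known mainly from male germ cells. Its RPKM measured 5.18, 9.86 and 7.405 in Dbx1 samples 1, 2 and 3, and 0.133, 0 and 0 in non-Dbx1 samples 1, 2 and 3. All 3 Dbx1 samples were high, and the signal in the non-Dbx1 samples was 2 reads in 1 sample. The means were 7.48 ± 2.34 and 0.0443 ± 0.0767 (SD, n = 3 each; L2FC = 2.99, SE 0.53), a fold of 212 with a wide interval (58.3 to 1756) because of those 2 reads.

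Zkscan17 (ENSMUSG00000020472, chromosome 11, 59485520 to 59526751, minus strand) encodes a zinc finger protein with SCAN and KRAB domains, also called Nizp1, that binds the histone methyltransferase Nsd1. Its RPKM measured 0.406, 2.10 and 1.0 in Dbx1 samples 1, 2 and 3, and 15.0, 14.1 and 11.2 in non-Dbx1 samples 1, 2 and 3. The non-Dbx1 samples were closely alike (highest over lowest 1.34), and each was above every Dbx1 sample. Unlike Zfp105 it was present in both groups, with 153 reads in Dbx1 and 1907 in non-Dbx1 samples. The means were 1.17 ± 0.858 and 13.5 ± 1.99 (SD, n = 3 each; L2FC = -2.80, SE 0.50), an 11.4-fold difference (9.70 to 13.6).

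Cdr1 (ENSMUSG00000090546), on chromosome X from 61184005 to 61185558 on the minus strand, encodes cerebellar degeneration-related antigen 1. Its RPKM measured 64.6, 56.6 and 54.1 in Dbx1 samples 1, 2 and 3, and 18.9, 17.7 and 24.3 in non-Dbx1 samples 1, 2 and 3. It was well detected in all 6 samples, with 283 to 1188 reads, and separated the groups by level, not by presence. The Dbx1 samples had the smallest relative spread among the 9 genes, a coefficient of variation of 9.43%. The means were 58.4 ± 5.50 and 20.3 ± 3.49 (SD, n = 3 each; L2FC = 1.49, SE 0.24), a 2.85-fold difference (2.66 to 3.05). Reads were counted without strand, so RNA of Cdr1 and RNA of the opposite strand, including the circular one, cannot be told apart in these values. The smallest length that fits the deposited values of Cdr1, 2313 bases, is also longer than the annotated exon of 1554 bases. The authors' gene model was thus not the one used here for positions.

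Of the 3 metabolic genes, Adssl1 and Cmbl were at or near 0 in the Dbx1 samples and Mtfp1 was higher in the Dbx1 samples. Adssl1 (ENSMUSG00000011148, chromosome 12, 112620045 to 112641360, plus strand), now also called Adss1, encodes the adenylosuccinate synthase isozyme of muscle, which takes inosine monophosphate toward adenosine monophosphate. Its RPKM measured 0.0977, 0 and 0.335 in Dbx1 samples 1, 2 and 3, and 17.4, 10.2 and 8.44 in non-Dbx1 samples 1, 2 and 3. All non-Dbx1 samples were high and the Dbx1 samples held 8 reads in all, with means of 0.144 ± 0.172 and 11.99 ± 4.73 (SD, n = 3 each; L2FC = -3.46, SE 0.55). The fold was 82.4 (41.6 to 191).

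Cmbl (ENSMUSG00000022235, chromosome 15, 31565389 to 31590119, plus strand) encodes carboxymethylenebutenolidase homologue, a cytosolic cysteine hydrolase of the dienelactone hydrolase family that cleaves certain ester prodrugs. It was listed at 0 in all 3 Dbx1 samples, and its RPKM measured 20.8, 16.4 and 9.30 in non-Dbx1 samples 1, 2 and 3. No Dbx1 sample had a read, while each non-Dbx1 sample had between 131 and 210. The non-Dbx1 mean was 15.5 ± 5.81 (SD, n = 3; L2FC = -3.98, SE 0.54), at least 166-fold above the floor of 3 reads in the Dbx1 samples.

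Mtfp1 (ENSMUSG00000004748, chromosome 11, 4091480 to 4095445, minus strand) encodes mitochondrial fission process 1, an inner membrane protein that promotes mitochondrial division. Its RPKM measured 32.4, 41.1 and 28.1 in Dbx1 samples 1, 2 and 3, and 13.3, 5.58 and 7.45 in non-Dbx1 samples 1, 2 and 3. Like Cdr1 it was present in both groups and differed by level, with means of 33.8 ± 6.60 and 8.79 ± 4.05 (SD, n = 3 each; L2FC = 1.89, SE 0.36). The fold was 4.07 (3.62 to 4.57). Its gap between the groups, 1.02 on the log2(RPKM + 1) scale, was the smallest of the 9. Just outside the rule, 4932438A13Rik had a gap of -0.00023, that is, groups that overlapped slightly, with 2.34, 2.63 and 2.30 RPKM in Dbx1 samples 1, 2 and 3 and 2.63, 2.70 and 3.22 in non-Dbx1 samples 1, 2 and 3.

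The 9 genes therefore ranged from the widest gap in the data to moderate ones. The middle gap of the 1866 genes without overlap was 0.19, 90 genes had a gap of at least 1 and 14 of at least 2. D930028M14Rik, 2810468N07Rik, Cmbl, Adssl1 and Zkscan17 held ranks 1, 2, 3, 5 and 7 of the 923 genes higher in the non-Dbx1 samples. Zfp105 and 1700064M15Rik held ranks 4 and 6 of the 943 genes higher in the Dbx1 samples, while Cdr1 and Mtfp1 held ranks 44 and 53. By the plain difference in mean RPKM the order was another one, with D930028M14Rik at rank 32, 2810468N07Rik at 74 and Cmbl at 322 on the non-Dbx1 side, and Cdr1 at 87, Mtfp1 at 155 and 1700064M15Rik at 1184 on the Dbx1 side.

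**Figure D3:**
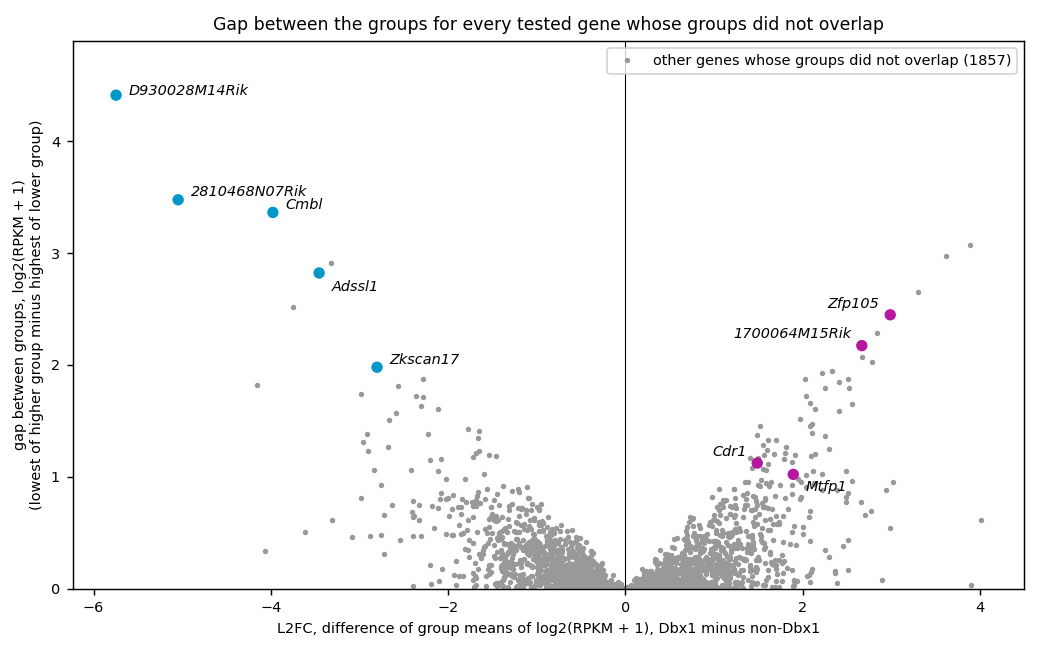
Gap between the groups on the log2(RPKM + 1) scale (vertical) against L2FC (horizontal, Dbx1 minus non-Dbx1) for the 1866 tested genes whose groups did not overlap, with the 9 genes named (magenta, higher in Dbx1; cyan, higher in non-Dbx1). D930028M14Rik stands at the top left with a gap of 4.41, and Cdr1 (1.12) and Mtfp1 (1.02) lie among other genes.

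The non-Dbx1 samples did not hold these RNAs in equal amounts. 2810468N07Rik, Cmbl, Adssl1 and Zkscan17 were each highest in non-Dbx1 sample 1 and lowest in non-Dbx1 sample 3, and D930028M14Rik was lowest in sample 1 and highest in sample 3. RNAs of other cell types also differed between these samples. The summed RPKM of 5 erythroid markers, among them the globins, was 14058, 1198 and 733 in non-Dbx1 samples 1, 2 and 3 and 90.3 to 507 in the Dbx1 samples, without overlap. That of 4 noradrenergic markers was 15.99, 497 and 14.9 in non-Dbx1 samples 1, 2 and 3 against 0.134 to 2.70 in the Dbx1 samples, with Slc6a2 and Dbh at 0 in every Dbx1 sample. That of 5 endothelial and mural markers was 4.72, 65.4 and 3.05 against 0.0503 to 0.650. The part of these cell types in the values of the 5 genes higher in the non-Dbx1 samples was not tested.

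Other marker sums overlapped between the groups. The 6 neuronal markers summed to 1364 to 2202 RPKM in the Dbx1 and 1326 to 1828 in the non-Dbx1 samples, and each of the 6 was detected in every sample. The 6 oligodendrocyte-lineage markers summed to 4.38 to 9.68 in Dbx1 and 9.50 to 372 in non-Dbx1 samples, with the 372 in non-Dbx1 sample 1. The 6 astrocyte markers summed to 23.7 to 30.7 and 27.8 to 45.6, the 5 microglial markers to 0.202 to 10.4 and 0.739 to 13.3 with Tmem119 at 0 throughout, and the 5 markers of cholinergic motor neurons to 5.56 to 14.1 and 2.997 to 157. The 4 skeletal muscle markers, given because Adssl1 is the muscle isozyme, summed to 2.34 to 23.2 and 7.51 to 15.7, a sum carried by Acta1 (2.34 to 23.2 and 6.70 to 14.4). Of the other 3, Ckm, the muscle creatine kinase gene, was at 0 in every Dbx1 sample and at 0.422, 0.0580 and 0.0263 in non-Dbx1 samples 1, 2 and 3. Mylpf, a gene of a fast-muscle myosin light chain, was at 0 in every Dbx1 sample and at 0.919, 0.758 and 1.83 in non-Dbx1 samples 1, 2 and 3. Both thus lay on the same side as Adssl1 without overlap, at levels below it. Their gaps on the log2(RPKM + 1) scale were 0.037 for Ckm, from values close to 0, and 0.81 for Mylpf. Tnnc2 was at 0 throughout. The part of muscle RNA in the values of Adssl1 was not tested.

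The genes around the 9 were then compared, since an RNA can share its neighbourhood's expression or, without strand, its neighbour's reads. Every annotated gene that overlaps one of the 9, and the nearest detected gene on each side, gave 22 genes, of which 20 could be tested. None passed the FDR of 0.1 with limma (lowest FDR 0.91) or with voom on recovered reads, where limma called 1 of all 17614 genes (0.00568%). Beside 916 of the 17614 genes, 2 neighbours had an unadjusted limma p below 0.05, Pou2f2 and Sox8. These were also the 2 tested neighbours whose groups did not overlap (10%, beside 10.6% of all genes), and both were higher in the same group as the gene they overlap. The other 18 tested neighbours had overlapping groups.

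D930028M14Rik lies within Pou2f2 (chromosome 7, 25087344 to 25179726), the gene for the POU-domain transcription factor Oct-2, on the opposite strand and without shared exon bases. The RPKM of Pou2f2 measured 0.102, 0.228 and 0.557 in Dbx1 samples 1, 2 and 3, and 1.005, 1.37 and 1.43 in non-Dbx1 samples 1, 2 and 3. Both RNAs were thus higher in every non-Dbx1 sample, and both were lowest there in sample 1 and highest in sample 3. The difference for Pou2f2 did not pass limma's test over all genes (L2FC = -0.82, SE 0.34, FDR = 0.91). The neighbours to either side, Zfp574 (L2FC = -0.72, SE 0.46) and Dedd2, a gene of a death-effector-domain protein (L2FC = -0.10, SE 0.61), had groups that overlapped.

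2810468N07Rik and Sox8 (chromosome 17, 25565892 to 25570686), which encodes a SoxE transcription factor of glia and neural crest, run head to head and share 329 exon bases. The RPKM of Sox8 measured 0.654, 2.90 and 0 in Dbx1 samples 1, 2 and 3, and 9.50, 3.22 and 6.18 in non-Dbx1 samples 1, 2 and 3. The groups did not overlap, though Dbx1 sample 2 and non-Dbx1 sample 2 lay close together, and the difference did not pass limma's test over all genes (L2FC = -1.87, SE 0.69, FDR = 0.91). Among the non-Dbx1 samples the 2 genes did not follow each other, since 2810468N07Rik was 52.4 in sample 2 where Sox8 was lowest. In the non-Dbx1 samples the oligodendrocyte-lineage sum had its highest and lowest values, 372 and 9.50, in samples 1 and 2, as Sox8 did, and its part was not tested. In the default mode of HTSeq, reads that touch both genes are left out. Beyond the pair, Lmf1, which encodes a lipase maturation factor and lies 4041 bases away (L2FC = 0.25, SE 0.54), and Sstr5, a somatostatin receptor gene (L2FC = -0.31, SE 0.50), had overlapping groups.

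Zkscan17 shares 616 exon bases with 4933439C10Rik, a non-coding transcript of the opposite strand. The RPKM of 4933439C10Rik measured 1.93, 14.4 and 11.7 in Dbx1 samples 1, 2 and 3, and 11.0, 5.42 and 4.01 in non-Dbx1 samples 1, 2 and 3. The groups overlapped and the sign of its L2FC (0.19, SE 0.68, FDR = 0.99) turned when Dbx1 sample 2 (-0.25), Dbx1 sample 3 (-0.11) or non-Dbx1 sample 3 (-0.08) was left out. Zfp105 lies 8917 bases from Zkscan7, which is a SCAN and KRAB zinc finger gene like Zkscan17. Zkscan7 measured 0.0136, 0 and 0 in Dbx1 samples 1, 2 and 3 and 3.02, 0.781 and 0 in non-Dbx1 samples 1, 2 and 3. These neighbouring zinc finger genes thus had their signal in different groups, and the difference for Zkscan7 did not pass the test (L2FC = -0.94, SE 0.46, FDR = 0.91).

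C230004F18Rik covers all 1554 bases of Cdr1 on the opposite strand in GENCODE vM21. Its RPKM measured 3.29, 3.95 and 3.83 in Dbx1 samples 1, 2 and 3, and 1.81, 3.68 and 5.98 in non-Dbx1 samples 1, 2 and 3. The groups overlapped, with L2FC = 0.05 (SE 0.54, FDR = 0.99 with limma), beside 1.49 for Cdr1. The smallest length that fits its deposited values is 3935 bases, and multiples of it fit as well. The annotation used here gives 24030 exon bases. It is therefore not known from the values whether the authors' model of this gene reached Cdr1.

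Cmbl ends 680 bases from Cct5, which encodes a subunit of the cytosolic chaperonin and runs the other way. Cct5 was abundant in every sample, with 144, 99.96 and 81.8 RPKM in Dbx1 samples 1, 2 and 3 and 88.0, 132 and 118 in non-Dbx1 samples 1, 2 and 3, while Cmbl had no read in any Dbx1 sample. Its difference was small (L2FC = -0.07, SE 0.28) and its sign turned when Dbx1 sample 3 (0.11) or non-Dbx1 sample 2 (0.05) was left out. Adssl1 lies between Inf2, a formin gene with at most 0.161 RPKM, and Siva1, a gene of an apoptosis regulator, which measured 20.9 to 33.8 in the Dbx1 and 7.91 to 28.4 in the non-Dbx1 samples (L2FC = 0.70, SE 0.44). Mtfp1 lies 1593 bases from Sec14l2, which encodes a lipid-binding protein and measured 0.412 to 3.22 and 0.181 to 1.36 (L2FC = 0.71, SE 0.58). Around 1700064M15Rik, Gm26839 (L2FC = 0.21, SE 0.76) and Tdp1, a DNA repair gene (L2FC = 0.16, SE 0.57), had overlapping groups.

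**Figure D4:**
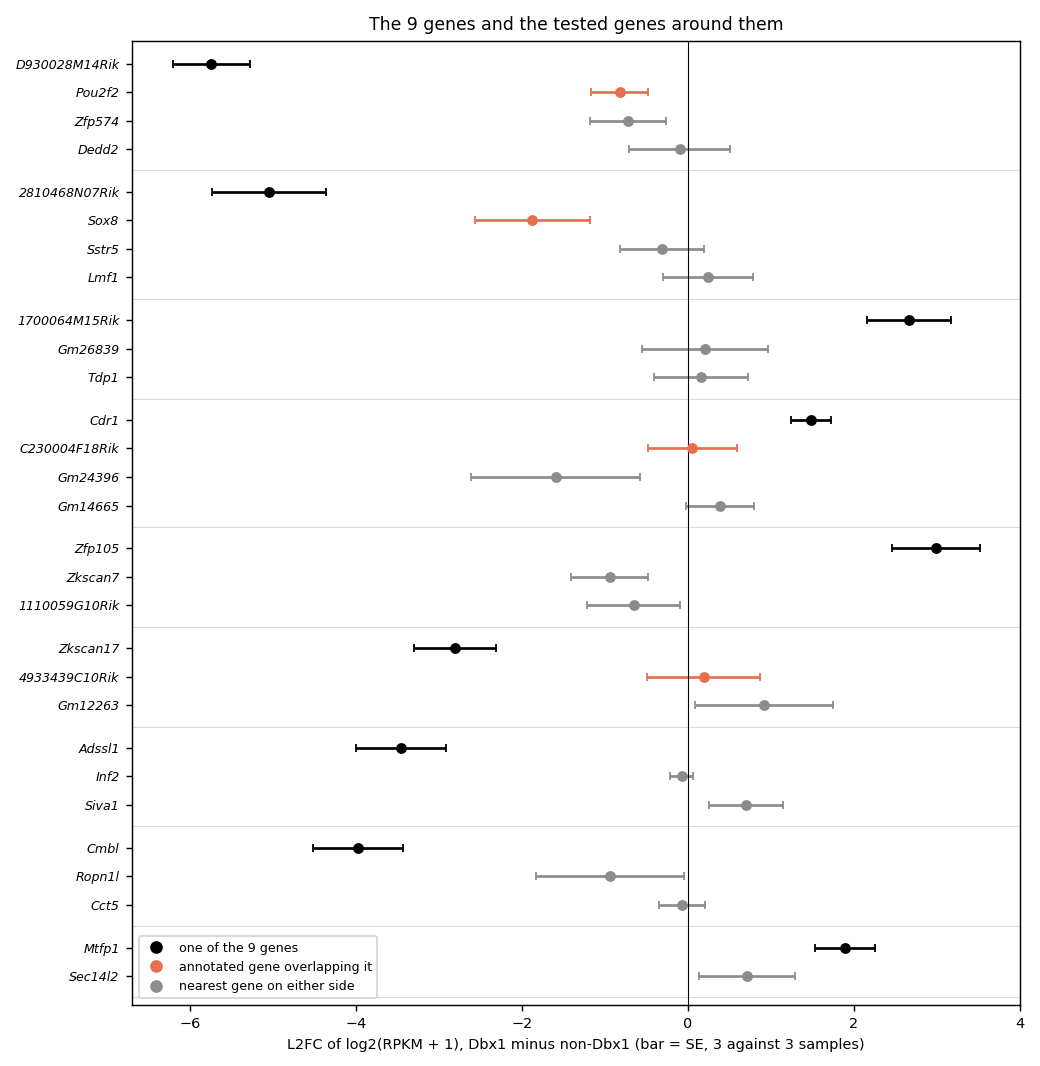
L2FC (horizontal, Dbx1 minus non-Dbx1, bars are SE, 3 against 3 samples) of each of the 9 genes (black), of the tested genes that overlap it (orange) and of the nearest tested genes on either side (grey). Pou2f2 (-0.82) and Sox8 (-1.87) lie on the same side as the genes they overlap, and C230004F18Rik (0.05) lies at 0 beside Cdr1 (1.49).

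Lists of related genes were set beside the 6 protein-coding genes, and none beside the 3 non-coding ones. In these 5 lists, limma called 0 of 74 tested genes in either direction at FDR 0.1. It called 1 of all 17614 genes (0.00568%), so nothing is read from the 0. An unadjusted p below 0.05 was found for 2 list genes, beside 916 of the 17614. Voom on recovered reads also called 0. The groups did not overlap for 8 of the 74 (10.8%, beside 10.6% of all genes). The median L2FC of all 17614 genes was 0.0089. Of 15 genes of purine nucleotide synthesis, set beside Adssl1, 14 were tested, 8 with L2FC above 0 and 6 below, median 0.16. The paralogue of Adssl1, Adss, encodes the isozyme found outside muscle. Its RPKM measured 28.1, 17.2 and 14.7 in Dbx1 samples 1, 2 and 3 and 4.49, 23.4 and 17.9 in non-Dbx1 samples 1, 2 and 3. Adss was thus detected in all 6 samples with overlapping groups (L2FC = 0.57, FDR = 0.95), while Adssl1 was at most 0.335 in the Dbx1 samples.

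Of 14 genes of mitochondrial fission and fusion, set beside Mtfp1, 13 were tested, 6 above and 7 below 0, median -0.0073. Dnm1l, the dynamin-like GTPase of fission, measured 55.7 to 63.3 in the Dbx1 and 44.7 to 73.3 in the non-Dbx1 samples, and its groups overlapped. Mtfr1l, a fission regulator, measured 16.7 to 23.8 and 13.0 to 16.5, and Mief1, an adaptor that recruits Dnm1l, measured 0.713 to 2.39 and 2.93 to 12.6. These 2 were the genes of the list whose groups did not overlap, 1 in each direction, and neither passed the test (FDR = 0.93 and 0.91 with limma).

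Of 25 SCAN and KRAB zinc finger genes with their corepressors, 22 were tested, 12 above and 10 below 0, median 0.05. Zkscan1 had groups that did not overlap and was higher in the Dbx1 samples (2.44 to 3.86 against 0.552 to 1.86 RPKM). Zkscan14 (0.1001 to 0.951 against 1.63 to 4.07) and Cbx5, the gene of heterochromatin protein 1 alpha (12.4 to 17.97 against 18.1 to 20.8), lay apart the other way. Trim28, the corepressor of KRAB domains, measured 16.9 to 21.6 in the Dbx1 and 15.8 to 20.5 in the non-Dbx1 samples (L2FC = 0.06).

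Of 19 genes of the miR-7 and microRNA pathway, set beside Cdr1, 15 were tested, 9 above and 6 below 0, median 0.054. Ago4, an Argonaute gene, was the one whose groups did not overlap (0.124 to 2.69 in the Dbx1 and 3.80 to 13.99 in the non-Dbx1 samples, FDR = 0.91). Ago2, which encodes the slicing Argonaute, measured 5.16 to 10.8 in the Dbx1 and 3.98 to 5.37 in the non-Dbx1 samples. Of 15 hydrolase genes set beside Cmbl, 10 were tested, 5 on each side of 0, median 0.21. Nceh1, a neutral cholesterol ester hydrolase gene, measured 31.1, 33.01 and 23.8 in Dbx1 samples 1, 2 and 3 and 13.7, 6.28 and 13.4 in non-Dbx1 samples 1, 2 and 3. Its groups lay apart and it had the lowest FDR in the 5 lists, 0.75, which did not pass (L2FC = 1.38). Ces1d, a carboxylesterase gene, lay apart the other way at levels of at most 0.461 RPKM.

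**Figure D5:**
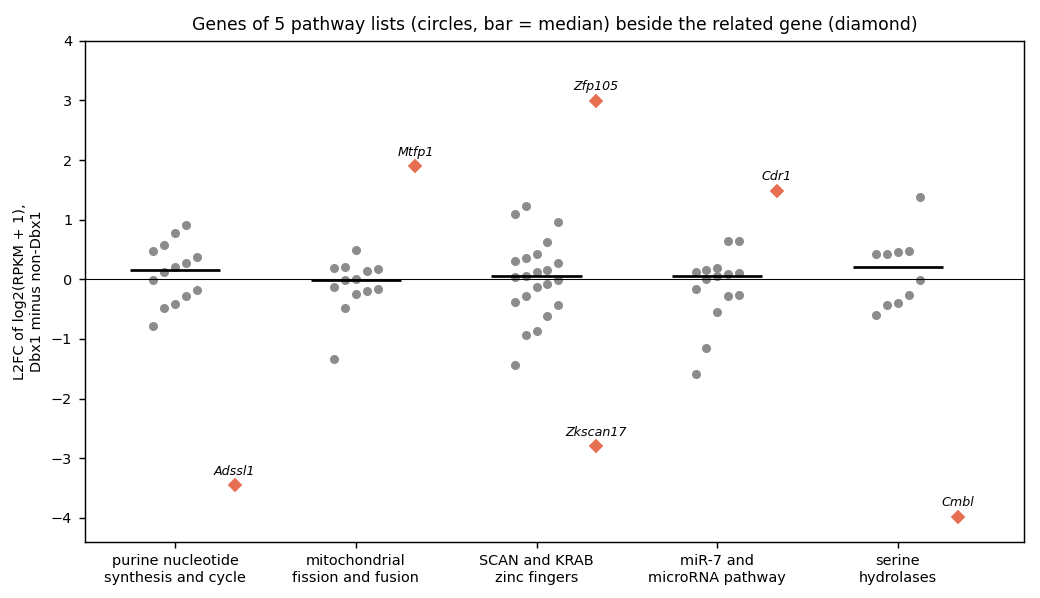
L2FC (vertical, Dbx1 minus non-Dbx1) of each tested gene of 5 pathway lists (grey circles, horizontal bar for the median) beside that of the related gene among the 9 (orange diamonds). The list medians lie between -0.0073 and 0.21, and the diamonds run from -3.98 for Cmbl to 2.99 for Zfp105.

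For each of the 9, the genes with the most similar values were listed among 12613 genes that reached an RPKM of 1 in 3 or more samples, by Pearson's r of log2(RPKM + 1) over the 6 samples. As the groups lie apart for each of the 9, any gene with a like difference between the groups has r near 1, and the r is a description only. Between 22 (Mtfp1) and 53 genes (1700064M15Rik) reached r of 0.95. Adssl1 and Cmbl were near each other (r = 0.99), and both were near Eya2, a gene of the eyes absent family of transcriptional coactivators, with at most 0.0752 RPKM in any Dbx1 sample and 4.91, 3.49 and 2.27 in non-Dbx1 samples 1, 2 and 3. Nearest to Mtfp1 were Rbfox1, the gene of a neuronal splicing factor, with 80.8 to 104 RPKM in the Dbx1 and 31.7 to 56.0 in the non-Dbx1 samples, and Map2k3 (r = 0.98). Nearest to Zfp105 were St8sia3, a gene of a brain sialyltransferase (13.7 to 14.9 against 9.14 to 9.83), and Gm37060, which was also near 1700064M15Rik together with Mir344i. Nearest to Cdr1 were Zfp68 (5.04 to 5.64 against 1.57 to 2.49) and Mcm9, to Zkscan17 Gm45513 and Rictor, to 2810468N07Rik Bag6 and Gab3, to D930028M14Rik Gm15236 and Gm25190, and to Cmbl Gm15222.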

How the data were processed

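RNA was measured in 3 Dbx1 and 3 non-Dbx1 samples of 15 neurons each. The authors made cDNA with an ultra-low-input kit, aligned reads to mm10 with TopHat2, sorted them with SAMtools, counted reads per gene name with HTSeq without strand, and deposited RPKM per sample, computed with total exon lengths from an Ensembl annotation whose release is not given in the sources used here. The authors tested their counts with DESeq2, and only the RPKM was used here.

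Reads on genes per sample (6464675 to 9432958) and reads per gene were recovered from the steps between RPKM values, for 90.7% of the 27067 gene names with reads (within 0.02 of a whole number), as the smallest whole numbers that give the values, so true counts can be multiples. Reads come from amplified cDNA, so floors and intervals cover counting error only. log2(RPKM + 1) was compared with limma 3.58.1 (lmFit, eBayes with trend, two-sided, Benjamini-Hochberg over 17614 genes) in R 4.3.3. The p-values measure the spread between samples of different animals. Positions came from GENCODE vM21 (GRCm38) by name, for 95.4% of names. Other values used scipy 1.17.1, pandas 2.3.3 and numpy 2.4.6 under Python 3.11.15, and plots matplotlib 3.10.9.

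The 9 genes and all lists were chosen with earlier results of these data known. The genes named are the 9, every annotated gene overlapping them and the nearest detected gene on each side, list genes that passed or did not overlap, Adss, the 2 genes most similar to each, and the genes beside the threshold of the rule. Trim28, Dnm1l and Ago2 were added for their roles after their values were seen. Alternatives were a pseudocount of 0.1, other filters, size factors, quantile normalization, no trend, the replicate number as a block, each sample left out, voom on recovered reads and the ratio of means.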

Additional observations from a re-analysis of the deposited data

How the results depend on the processing

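The groups of the 9 genes did not overlap under size factors or quantile normalization. Their choice fixes their direction, and leaving out a sample cannot make such groups overlap, so neither is a sign of stability. 2810468N07Rik, Cmbl and 1700064M15Rik could not be fitted where a sample of their higher group was left out, since too few values above 0 remained. The L2FC of genes near 0 in 1 group moved with the scale: that of D930028M14Rik ran from -8.08 with voom on recovered reads to -5.47 without non-Dbx1 replicate 3, and that of Zfp105 from 2.79 to 7.401. The number of genes that limma called higher in the non-Dbx1 samples, 1, became 0 with a pseudocount of 0.1, with all genes above 0 in at least 1 sample, with voom and with the replicate number as a block, and 3 without the trend (D930028M14Rik, Cmbl and Gm25190). It ranged from 0 to 1 when 1 sample was left out, being 0 without non-Dbx1 replicate 2 or 3, and the number higher in the Dbx1 samples ranged from 0 to 1, the 1 being Gm1821 without non-Dbx1 replicate 2. The replicate numbers do not pair the samples, which came from different animals: deviations of same-numbered samples correlated at -0.11, 0.02 and -0.05, and under the replicate block 819 genes had an unadjusted p below 0.05, against 916 without it. No neighbour or list gene was called under any of these settings. The sign of 7 neighbours turned when 1 sample was left out, with these ranges: Dedd2 from -0.47 to 0.37 (sample left out: Dbx1 3, with 0.16, non-Dbx1 1), Lmf1 from -0.16 (non-Dbx1 1) to 0.46, Cct5 from -0.30 to 0.11 (Dbx1 3, and 0.05, non-Dbx1 2), 4933439C10Rik from -0.25 (Dbx1 2, with -0.11, Dbx1 3, and -0.08, non-Dbx1 3) to 0.94, C230004F18Rik from -0.29 (non-Dbx1 1) to 0.37, Gm26839 from -0.37 (non-Dbx1 1, with -0.28, Dbx1 3) to 0.87, and Tdp1 from -0.22 (non-Dbx1 3) to 0.39. C230004F18Rik also turned with voom (-0.00069) and as the ratio of means (-0.051). The cause was not tested. Groups of 3 limit the test, and levels worth fewer than 3 reads in 1 sample could have been missed.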
